A study of Mus musculus with 4 samples.

Results

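The ETO proteins, also called the myeloid translocation gene family, are transcriptional corepressors encoded in the mouse by Cbfa2t2, Cbfa2t3 and Runx1t1. All 3 genes were among the 32285 genes counted. They were selected on measured values of these libraries: Cbfa2t3 was chosen by its lower level in mutant than in wild-type hippocampus over all nuclei, and its paralogs were taken with it. The values of Cbfa2t3 in the mutant and the wild type are therefore given as a description with no test, while those of Cbfa2t2 and Runx1t1 were tested.

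Single-nucleus RNA-seq was performed on frozen hippocampi of both hemispheres of adult littermate mice, at the oldest age that the study sampled. Wild-type (WT) mice were compared with heterozygous Cyfip2+/R87C knock-in (KI) mice, which carry the arginine-to-cysteine change of an infantile epilepsy from the germ line, in all cells. There were 2 mice of each genotype, with 1 library from each mouse. The treatment label of KI replicate 2 reads R88C, whereas the protocol text of every library reads R87C, and this library was kept as KI by its title. No drug was given, and the strain background named in the study was C57BL/6N.

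The 4 libraries held 73009975 to 80913580 UMIs (unique molecular identifiers, each 1 counted transcript) in 12665 to 16055 barcodes, and 52032 nuclei were kept. Between 40 and 67 barcodes were shared by each pair of libraries, at most 0.529% of the smaller library. All libraries carried 1 batch label, and batches could therefore not be compared. The nuclear RNA Malat1 took 8.90% and 8.71% of UMIs in WT and 13.7% and 12.2% in KI, and its part in the results was not tested. Cyfip2 itself measured 182 and 180 CPM (UMIs scaled to a total of 1000000) in WT and 172 and 171 CPM in KI. These counts do not tell the alleles apart and so do not check the labels. Of the kept nuclei, 9211 stayed unnamed and the rest fell into 13 classes by their markers. Endothelial, ependymal, choroid plexus, mossy and CA2 nuclei formed no named class.

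ETO proteins do not read DNA by themselves. They are held at genes by DNA-binding partners, among them the E proteins Tcf3, Tcf4 and Tcf12, which recognise E-boxes, and zinc finger factors such as Bcl6 and Zbtb16, and they bring in the corepressor Ncor1 with histone deacetylases. Runx1t1 is best known as the partner of RUNX1 in the fusion protein of a myeloid leukaemia, Cbfa2t3 for restraining differentiation of blood progenitors, and Cbfa2t2 for work in stem and germ cells. In the nervous system the family has been tied to the differentiation of neurons downstream of proneural factors.

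In GENCODE M21 (GRCm38), Cbfa2t3 lies on the minus strand at chr8:122625141-122699109, Cbfa2t2 on the plus strand at chr2:154436481-154539356 and Runx1t1 on the plus strand at chr4:13743436-13893649. The protein-coding transcripts of Cbfa2t3 begin at widely separated first exons, and RefSeq lists 2 starts. The 250 bases before each are shown because Cbfa2t3 is the gene on which the family was selected. Its starts also differ in CAGCTG, a form of the E-box. Capitals mark the E-box form CAGCTG and the GC box GGGCGG on either strand, which do not overlap each other in these windows. Other forms of the E-box were not searched for and are not marked. The upstream window, chr8:122699110-122699359 (GRCm38.p6, minus strand), lies outside the gene and over an exon of the antisense gene Gm10612. The downstream window, chr8:122678176-122678425 (minus strand), lies in the first intron of the longest transcript.
Cbfa2t3 upstream start: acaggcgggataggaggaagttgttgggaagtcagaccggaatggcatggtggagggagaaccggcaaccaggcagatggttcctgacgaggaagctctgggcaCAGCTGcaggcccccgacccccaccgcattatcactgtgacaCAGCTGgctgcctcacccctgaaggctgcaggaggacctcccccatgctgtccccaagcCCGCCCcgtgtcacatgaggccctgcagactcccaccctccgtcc
Cbfa2t3 downstream start: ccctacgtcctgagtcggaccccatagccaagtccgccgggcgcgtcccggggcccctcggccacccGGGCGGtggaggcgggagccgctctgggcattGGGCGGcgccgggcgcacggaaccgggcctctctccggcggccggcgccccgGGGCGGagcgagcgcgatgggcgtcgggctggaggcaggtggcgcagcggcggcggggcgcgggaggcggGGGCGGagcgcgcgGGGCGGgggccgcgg

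The upstream window held 2 copies of CAGCTG, 1 GC box and 9 CG dinucleotides. The downstream window held no CAGCTG, 5 GC boxes and 43 CG dinucleotides. Over the 32851 starts of the table, 13.0% of such windows held CAGCTG, 32.7% held GGGCGG on either strand, and the median number of CG dinucleotides was 6. The window before Cbfa2t2 (chr2:154436234-154436483, plus strand) was also rich in CG, with 41, and held 4 GC boxes and no CAGCTG. Libraries read from the 3′ end of transcripts do not tell which start was used. The antisense gene Gm10612 had 1 UMI in KI replicate 1 and 0 in each other library.

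The 3 genes had distinct patterns over the cell classes of the WT hippocampus. Levels were compared between classes within a gene, since these UMI counts are not scaled by transcript length and were not compared between genes. Cbfa2t3 was highest in mural cells and then in DG granule and CA1 pyramidal neurons, Runx1t1 by pyramidal and inhibitory neurons and was lowest in DG granule neurons, and Cbfa2t2 was near even.

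Cbfa2t3 measured 36.4 and 40.8 CPM in DG granule neurons of WT replicates 1 and 2, and 33.8 and 34.9 CPM in CA1 pyramidal neurons. In microglia it measured 25.2 and 26.4 CPM. The 2 WT mice did not overlap between neighbours among these 3 classes. With nuclei gated by markers in place of clusters, DG (36.0 and 40.0 CPM) and CA1 (37.5 and 38.8 CPM) overlapped, so the order of these 2 classes depends on how they were defined. CA3 pyramidal neurons (18.7 and 22.8 CPM) overlapped with subicular or cortical excitatory neurons (19.3 and 23.7 CPM). Inhibitory neurons, with 8.51 and 11.9 CPM, lay lowest among neurons and overlapped with OPC (oligodendrocyte precursor cells, 10.3 and 10.4 CPM) and with oligodendrocytes. Mural cells, the contractile cells of vessels, had the highest level (48.0 and 83.4 CPM), but this rested on 2 and 6 UMIs in 29 and 26 nuclei.

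Runx1t1 was high in every named neuronal class except DG granule neurons and Cajal-Retzius cells. It measured 332 and 365 CPM in CA1 pyramidal neurons, 269 and 314 CPM in subicular or cortical excitatory neurons, 280 and 300 CPM in CA3 pyramidal neurons, and 263 and 287 CPM in inhibitory neurons. CA1 stood above the other classes without overlap, and the next 3 overlapped with their neighbours in the order. Among glia, OPC reached 121 and 138 CPM, astrocytes 66.8 and 79.7 CPM and oligodendrocytes 42.8 and 42.3 CPM. DG granule neurons came last with 17.2 and 17.4 CPM, which was 4.96% of the mean level in CA1. Their WT mean was 33.6 CPM without doublet removal and 28.8 CPM in nuclei gated by markers, against 347 and 359 CPM in CA1. Only the committed OPC, with 2 and 4 UMIs, ranged as low.

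Cbfa2t2 varied little. Its WT means ran from 87.6 CPM in OPC to 137 CPM in Cajal-Retzius cells, and the library ranges of every pair of neighbours in the order of 13 classes overlapped. DG granule neurons had 121 and 119 CPM, CA1 pyramidal neurons 116 and 111 CPM, inhibitory neurons 123 and 128 CPM and oligodendrocytes 124 and 120 CPM.

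**Figure D1:**
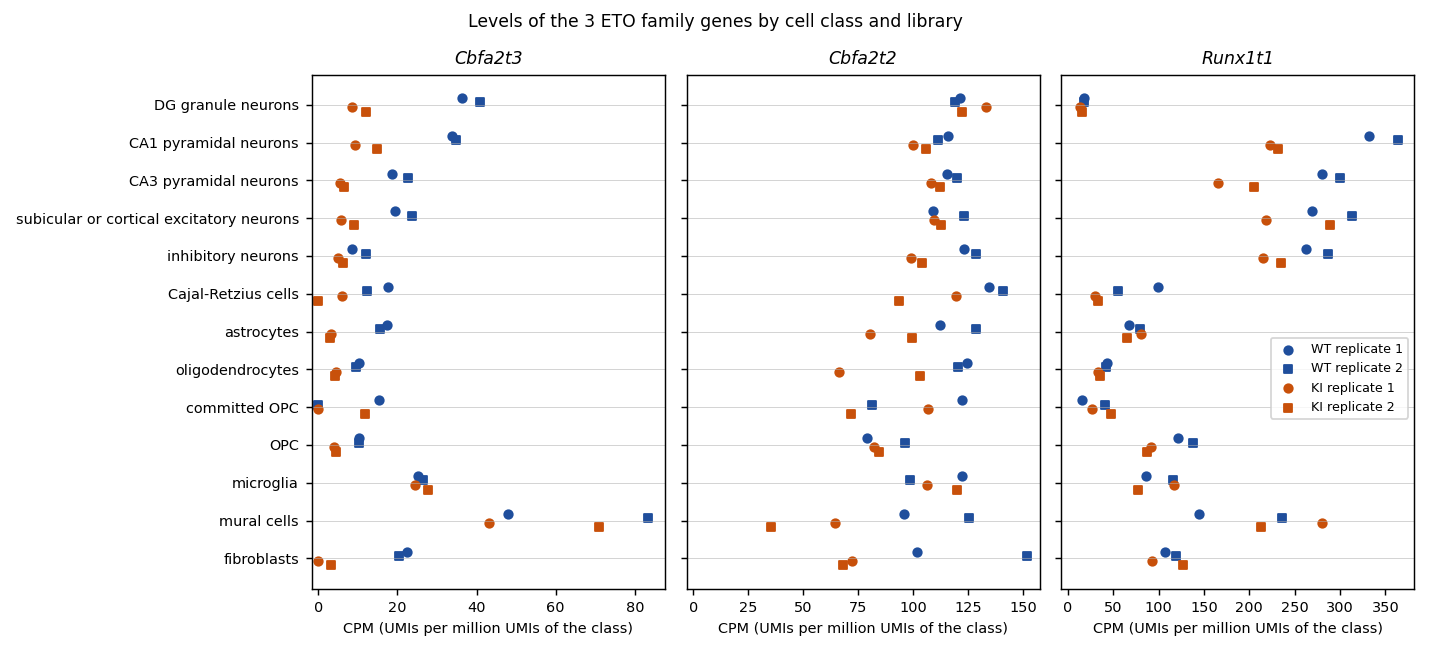
Level of each gene (x axis, CPM, linear scale, a separate range for each gene) in 13 cell classes (y axis) for 2 WT (blue) and 2 KI (orange) libraries, 1 point a library. For Cbfa2t3 the KI points lie left of the WT points in DG, CA1 and CA3 neurons and among them in microglia, and for Runx1t1 DG granule neurons lie at 13.6 to 17.4 CPM while CA1 lies at 222 to 365 CPM.

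Shares of nuclei with a UMI were set beside the CPM levels. Each nucleus was thinned to 1000 UMIs, leaving out at most 21 of the nuclei of a library in DG and at most 3 in CA1. Runx1t1 then had a UMI in 28.0% and 30.4% of WT CA1 nuclei and in 1.84% and 1.84% of WT DG nuclei, against 75.4%, 81.8%, 6.58% and 7.47% without thinning. Oligodendrocytes had 4.27% and 4.48% after thinning, so the DG share lay below that of a glial class. Background RNA was not measured, and its part in the DG counts was not tested. Cbfa2t3 had a UMI in 3.53% and 4.08% of thinned WT DG nuclei (13.2% and 16.4% unthinned), against 1.02% and 0.91% in oligodendrocytes. The thinned shares of DG overlapped with those of CA1 (3.30% and 3.60%), and those of microglia (1.82% and 2.52%) with CA3 (1.98% and 2.24%). Median depth was 3725 and 4161 UMIs in WT DG nuclei and 1417 and 1489 UMIs in WT oligodendrocytes, and up to 392 oligodendrocyte nuclei of a library fell below 1000 UMIs.

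The genes most like each member were sought over 52 sums of 13 classes by 4 libraries, among 14273 genes of at least 10 CPM in some class. The points share libraries and depth, and the correlations are a description. Closest to Cbfa2t3 were Cacna1h, a low-voltage-activated calcium channel subunit (Pearson r = 0.79), Fam131a (r = 0.77), the integrin subunit Itga4 (r = 0.71), the exchange factor Rapgef5 (r = 0.69) and the splicing factor Srsf9 (r = 0.69). For Runx1t1 they included the muscarinic receptor Chrm3 (r = 0.83), Gm48727 (r = 0.79), Nell1 (r = 0.79) and Etl4 (r = 0.77). Like Runx1t1, Chrm3 was low in WT DG granule neurons (50.4 CPM) and high in CA1 (1614 CPM). For Cbfa2t2 the values were lower, with the RNA methyltransferase Nsun2 first (r = 0.72), then Tdp1 (r = 0.67), Gm7854 (r = 0.67), Zgpat (r = 0.67) and Gss (r = 0.67). In KI mural cells, Nsun2, Gm7854, Zgpat and Gss had a mean of 0 CPM, where Cbfa2t2 had 3 and 3 UMIs. Small classes weighed as much as large ones in r, and their part in it was not tested. Between members, r was 0.30 for Cbfa2t3 with Runx1t1, 0.17 for Cbfa2t3 with Cbfa2t2 and -0.10 for Cbfa2t2 with Runx1t1.

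The KI and WT hippocampi were then compared, the question being which members and which classes differed. Over all nuclei, Cbfa2t3 measured 26.9 and 29.2 CPM in WT against 7.58 and 9.87 CPM in KI, from 1867, 1938, 511 and 724 UMIs. Both KI libraries lay below both WT libraries, and the KI mean was 31.1% of the WT mean. The log2 fold change was -1.64 (SE 0.15, n = 2 a group). This is the contrast that chose the gene, and 0.889% of the 21718 genes tested over all nuclei passed the threshold there (an adjusted p below 0.05 in edgeR's quasi-likelihood test). In such sums, fewer nuclei of a type and less RNA per nucleus cannot be told apart.

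Runx1t1 measured 187 and 225 CPM over all WT nuclei and 153 and 179 CPM over all KI nuclei, and Cbfa2t2 119 and 123 CPM against 106 and 112 CPM. Both KI libraries lay below both WT libraries for either gene, and the share of all genes with this order was not counted. Neither passed the test over all genes (edgeR, adjusted p = 0.25 for Runx1t1 and 0.479 for Cbfa2t2), with log2 fold changes of -0.26 (SE 0.12) and -0.10 (SE 0.080).

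Cell composition differed between libraries, DG granule neurons giving 25.7% and 22.9% of UMIs in WT and 17.7% and 13.2% in KI. When the levels of each class were weighted by the mean WT shares of UMIs, the Cbfa2t3 sums became 26.4 and 29.6 CPM in WT against 7.68 and 9.96 CPM in KI. The log2 ratio of the KI to the WT mean was -1.67 with these weights and -1.69 as observed. For Runx1t1 the weights moved it from -0.31 to -0.50, and for Cbfa2t2 from -0.15 to -0.13. In WT, DG granule neurons held 33.4% of the Cbfa2t3 UMIs and 2.04% of the Runx1t1 UMIs.

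Within classes, Cbfa2t3 was lower in KI in each neuronal class with over 100 nuclei a library. In DG granule neurons it measured 36.4 and 40.8 CPM in WT against 8.48 and 12.1 CPM in KI (log2 fold change -1.78, SE 0.18). In CA1 pyramidal neurons the values were 33.8 and 34.9 CPM against 9.39 and 14.9 CPM (-1.43, SE 0.20), and in CA3 pyramidal neurons 18.7 and 22.8 CPM against 5.58 and 6.47 CPM (-1.70, SE 0.20). The genotypes did not overlap in any of these classes. Subicular or cortical excitatory neurons had 19.3 and 23.7 CPM in WT against 5.78 and 9.06 CPM in KI (-1.48, SE 0.27). Inhibitory neurons, which started from the lowest neuronal level, had 8.51 and 11.9 CPM against 4.90 and 6.23 CPM (-0.76, SE 0.27).

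Glial counts of Cbfa2t3 were small. Astrocytes had 22 and 22 UMIs in WT and 2 and 2 UMIs in KI, which was 17.5, 15.5, 3.35 and 3.01 CPM. Oligodendrocytes had 10.3 and 9.61 CPM in WT against 4.37 and 4.35 CPM in KI. Both glial classes thus had KI values below WT values. Lists of neuronal markers in these nuclei moved in both directions. The 7 CA3 markers summed to 248 and 256 CPM in WT astrocytes against 193 and 196 CPM in KI, with 5 of 7 lower in both KI libraries and 1 of 7 at 0 in a library. In oligodendrocytes they summed to 160 and 164 CPM in WT against 99.6 and 136 CPM in KI, with 5 of 7 lower, and the 8 DG markers to 2795 and 2909 CPM against 2517 and 2100 CPM, with 3 of 8 lower. In astrocytes the 7 CA1 markers summed to 209 and 196 CPM in WT against 151 and 169 CPM in KI, with 4 of 7 lower and 0 higher. The 8 DG markers there summed to 1830 and 1761 CPM against 1337 and 1669 CPM, with 3 of 8 lower and 1 higher. The 10 inhibitory markers in astrocytes were higher in KI as a sum, with 597 and 632 CPM in WT against 843 and 789 CPM, though 2 of 10 were higher and 1 lower in both KI libraries. In oligodendrocytes the 7 CA1 markers summed to 295 and 298 CPM in WT against 298 and 301 CPM in KI. The part of these markers in the Cbfa2t3 values was not tested. OPC had 8, 7, 3 and 3 UMIs in the same order, under the low-count filter of the fit. Cbfa2t3 thus passed that filter in 9 of 10 comparisons, and Cbfa2t2 and Runx1t1 in all 10.

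Microglia differed from this: Cbfa2t3 measured 25.2 and 26.4 CPM in WT against 24.4 and 27.7 CPM in KI, and the genotypes overlapped. The log2 fold change was 0.07 (SE 0.38), from 21, 15, 14 and 15 UMIs. Exact 95% Poisson intervals, which cover counting error only, ran from 15.6 to 38.5 CPM in WT replicate 1 and from 15.5 to 45.6 CPM in KI replicate 2. Mural cells overlapped as well, with 48.0 and 83.4 CPM in WT against 43.0 and 70.9 CPM in KI, from 2, 6, 2 and 6 UMIs. Fibroblasts had 4 and 5 UMIs in WT and 0 and 1 in KI, Cajal-Retzius cells 3, 2, 1 and 0, and committed OPC 2, 0, 0 and 2. Over 13 alternatives the microglial value ran from -0.25, with nuclei of at least 1000 genes, to 0.54, with nuclei gated by markers.

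**Figure D2:**
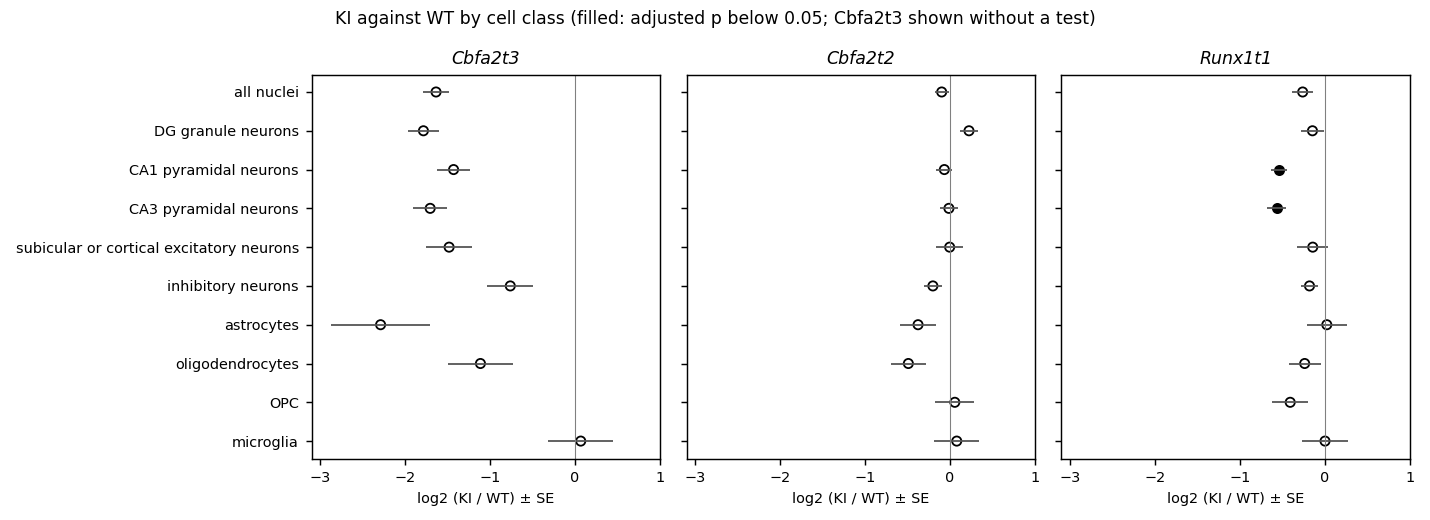
edgeR log2 fold change of KI against WT (x axis) with its standard error (bars) for all nuclei and 9 cell classes (y axis). Cbfa2t3 lies below 0 everywhere but in microglia (0.07) and has no point in OPC, Runx1t1 passes the threshold in CA1 and CA3 (filled points, -0.54 and -0.57), and Cbfa2t2 passes in no class.

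DG granule neurons fell into 2 clusters that separated by genotype: in cluster 0 the WT libraries had 4173 and 3166 nuclei and the KI libraries 228 and 869, and in cluster 5 the WT libraries had 129 and 125 and the KI libraries 2240 and 1351. The members were not used in the clustering. Cbfa2t3 was lower in KI than in WT in both. In cluster 0 it measured 36.8 and 41.0 CPM in WT against 7.52 and 12.0 CPM in KI. In cluster 5 it measured 26.2 and 36.6 CPM in WT, from 15 and 21 UMIs, and 8.57 and 12.2 CPM in KI. Cbfa2t2 lay the other way in both clusters, with 122 and 120 CPM in WT against 127 and 126 CPM in KI in cluster 0, and 106 and 97.6 CPM against 134 and 119 CPM in cluster 5, where WT had 61 and 56 UMIs. Inhibitory neurons also held 2 clusters, and Cbfa2t3 was lower in KI in each (5.63 and 9.56 against 3.69 and 4.85 CPM in cluster 6, and 14.7 and 17.6 against 7.79 and 9.56 CPM in cluster 12). Subicular or cortical excitatory neurons mixed clusters in unequal parts. Cbfa2t3 was lower in KI in cluster 7 (14.9 and 22.4 against 6.15 and 9.90 CPM) and in cluster 8 (21.3 and 25.9 against 8.80 and 9.06 CPM). Cluster 17 had 45 nuclei in WT replicate 1, 0 in WT replicate 2, 224 in KI replicate 1 and 40 in KI replicate 2, with 1, 0, 4 and 0 Cbfa2t3 UMIs, so nuclei of this low cluster were most numerous in KI replicate 1. It took the class name with 5 of 10 markers raised. Its leading genes, Synpo2, Adamts19, Lef1 and Prkcd among them, held no marker of the class, so the name is uncertain.

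**Figure D3:**
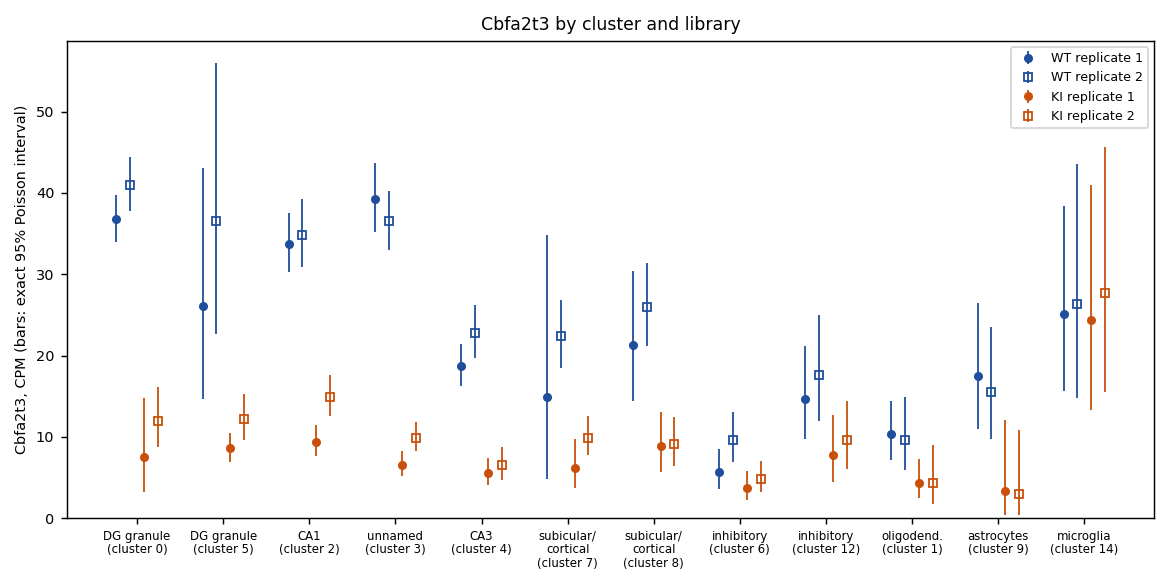
Cbfa2t3 level (y axis, CPM from 0) in 12 clusters (x axis) of nuclei for 2 WT (blue) and 2 KI (orange) libraries, with exact 95% Poisson intervals as bars. KI points lie between 7.52 and 12.2 CPM in both DG clusters, while WT points lie between 26.2 and 41.0 CPM, and the 4 microglial points lie together.

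The thinned share of nuclei with a Cbfa2t3 UMI fell in the same classes: 3.53% and 4.08% in WT against 0.88% and 1.28% in KI for DG granule neurons, and 3.30% and 3.60% against 0.93% and 1.53% for CA1 pyramidal neurons. Unthinned, the KI shares were 3.93% and 5.14% in DG and 6.70% and 8.38% in CA1, at median depths of 4408, 3979, 6674 and 5489 UMIs. KI oligodendrocytes had 0.47% and 0.36% after thinning. KI DG nuclei lay above this glial share in their own libraries. Microglia had 1.82% and 2.52% in WT and 2.47% and 3.87% in KI.

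Runx1t1, tested within classes, fell in CA1 and CA3 pyramidal neurons. In CA1 it measured 332 and 365 CPM in WT against 222 and 232 CPM in KI, from 2206 to 3312 UMIs in a library. The genotypes did not overlap, the KI mean was 65.2% of the WT mean, and the log2 fold change was -0.54 (SE 0.094, edgeR, adjusted p = 0.0199, n = 2 a group). In CA3 it measured 280 and 300 CPM in WT against 166 and 205 CPM in KI, again with no overlap (-0.57, SE 0.11, edgeR, adjusted p = 0.0457). Beside these calls, 7.33% of 15412 genes passed in CA1 and 2.33% of 15387 genes in CA3. Both calls were lost when either WT library was left out (adjusted p = 0.102 and 0.27 in CA1, 0.686 and 0.567 in CA3) and kept when either KI library was left out. The calls over all genes moved in the same way. In CA1 they went from 1129 to 454 and 565 without WT replicate 1 or 2 and to 3629 and 6292 without KI replicate 1 or 2, and in CA3 from 358 to 0 in both fits without a WT library (edgeR, with 1036 and 1262 genes at an unadjusted p below 0.05) and to 1840 and 5417 without a KI library.

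In the other classes Runx1t1 did not pass. DG granule neurons had 17.2 and 17.4 CPM in WT against 13.6 and 14.9 CPM in KI (-0.15, SE 0.14, edgeR, adjusted p = 0.53), at the low level given above. Inhibitory neurons had 263 and 287 CPM against 215 and 235 CPM (-0.18, SE 0.097, edgeR, adjusted p = 0.336). Subicular or cortical excitatory neurons overlapped between genotypes, with 269 and 314 CPM against 219 and 289 CPM. OPC had 121 and 138 CPM in WT against 91.5 and 87.3 CPM in KI, without overlap, but the difference did not pass (-0.41, SE 0.21, edgeR, adjusted p = 0.596). In astrocytes and microglia the genotypes overlapped, and oligodendrocytes had 42.8 and 42.3 CPM against 33.5 and 35.4 CPM.

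Cbfa2t2 passed in none of the 9 classes. In DG granule neurons it measured 121 and 119 CPM in WT against 133 and 122 CPM in KI (0.22, SE 0.11, edgeR, adjusted p = 0.216). The log2 ratio of the mean CPM was 0.087, since the fit scaled the libraries by other factors. In oligodendrocytes it measured 124 and 120 CPM in WT against 66.1 and 103 CPM in KI, the 2 KI mice lying apart (-0.49, SE 0.21, edgeR, adjusted p = 0.352). In inhibitory neurons the values were 123 and 128 CPM against 98.9 and 104 CPM (-0.20, SE 0.10, edgeR, adjusted p = 0.316). Astrocytes had 112 and 128 CPM in WT against 80.4 and 99.4 CPM in KI (-0.38, SE 0.21, edgeR, adjusted p = 0.544). Leaving out KI replicate 2 alone brought a call in DG granule neurons (0.32, edgeR adjusted p = 2.05e-05) and in oligodendrocytes (-0.79, edgeR adjusted p = 3.93e-06). That fit called 8281 of 17344 genes in DG granule neurons and 3125 of 14046 in oligodendrocytes, where the fit of all libraries called 1613 and 48. CA1, CA3 and subicular or cortical excitatory neurons had log2 fold changes between -0.07 and -0.0030. The shares of genes that passed were 9.87% in DG granule neurons, 1.42% in inhibitory neurons, 0.368% in oligodendrocytes, 0.15% in astrocytes, 0.0109% in OPC and 0% in subicular or cortical excitatory neurons and in microglia. In the last pair, edgeR called 0 genes, 1495 and 572 genes had an unadjusted p below 0.05, and DESeq2 called 55 and 1 genes.

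Other marker lists moved with genotype in these classes. In DG granule neurons the 7 OPC markers summed to 49.5 and 53.9 CPM in WT against 185 and 127 CPM in KI, with 2 of 7 higher in both KI libraries. The 6 CA2 markers there summed to 85.3 and 87.2 CPM in WT against 26.6 and 42.3 CPM in KI, with 3 of 6 lower in both, and the 7 mossy cell markers to 67.6 and 74.2 CPM against 38.1 and 45.1 CPM, with 4 of 7 lower. In CA1 the 7 CA1 markers themselves summed to 1184 and 1182 CPM in WT against 1054 and 881 CPM in KI, with 6 of 7 lower in both KI libraries. The 9 astrocyte markers in CA1 had sums of 135 and 146 CPM in WT against 90.7 and 94.1 CPM in KI, with 5 of 9 lower. In CA3 the 7 OPC markers summed to 59.9 and 55.6 CPM in WT against 96.9 and 81.6 CPM in KI, with 3 of 7 higher. In inhibitory neurons their own 10 markers summed to 9861 and 10227 CPM in WT against 7987 and 8420 CPM in KI, with 7 of 10 lower, and the 7 CA3 markers to 278 and 268 CPM against 189 and 223 CPM, with 5 of 7 lower. Of these lists, only the mossy list in DG and the CA3 list in inhibitory neurons had a marker at 0 in a library, 1 each. Their part in the member values was not tested.

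The difference between DG and CA1 was tested directly for the paralogs, as an interaction of class and genotype in a fit that held the library as a block. For Runx1t1 the KI-WT difference in DG minus that in CA1 was 0.40 on the log2 scale (SE 0.12, edgeR, adjusted p = 0.048, n = 4 libraries). For Cbfa2t2 it was 0.30 (SE 0.098, edgeR, adjusted p = 0.0658). In this comparison 13.4% of 16571 genes passed. The Runx1t1 value sets a called difference in CA1 against a low level in DG. It was called in 2 of the 8 alternatives that kept every library, with edgeR or DESeq2 adjusted p between 0.0423 and 0.389. It was also lost without WT replicate 1, WT replicate 2 or KI replicate 2 (adjusted p = 0.217, 0.423 and 0.0989). The Cbfa2t2 value was called only when KI replicate 2 was left out (0.37, edgeR adjusted p = 0.000188), a fit that called 3616 genes against 2224. For Cbfa2t3 the value was -0.33 (SE 0.15), given with no test.

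The other genes of the corepressor pathway were taken from 3 lists chosen by function: 12 corepressor complex partners, 22 DNA-binding and adaptor partners, and 17 Notch and basic helix-loop-helix (bHLH) genes. None of the 47 list genes tested over all nuclei passed the threshold with edgeR, where DESeq2 called 5. In DG granule neurons 7 of 44 passed (15.9%, against 9.87% of all genes tested), 1 higher and 6 lower in KI. In CA1 pyramidal neurons 4 of 41 passed (9.76%, near the 7.33% of all genes tested), 1 higher and 3 lower, and in each other class 0 passed. The median log2 fold change of the 44 list genes in DG was -0.13, against 0.00012 over all genes tested. In CA1 it was -0.17 against 0.0022.

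Among the corepressor complex partners, which form the repressing machinery, 1 of 12 passed in DG and 1 of 12 in CA1. These shares of 8.33% lay near the 9.87% and 7.33% of all genes tested. The medians were -0.25 in DG and -0.23 in CA1, against 0.00012 and 0.0022 over all genes tested, and 9 of 12 genes lay below 0 in each. Tbl1x, a subunit of the Ncor complex, fell in DG granule neurons, from WT levels of 39.9 and 36.1 CPM to 23.2 and 19.96 CPM (-0.68, SE 0.15, edgeR, adjusted p = 0.0399), a call kept in 7 of 9 alternatives with every library. In CA1, Tbl1x had 71.3 and 65.1 CPM in WT against 52.1 and 48.2 CPM in KI and did not pass. Rcor1, the scaffold of another histone deacetylase complex, fell in CA1 from 79.3 and 77.0 CPM to 38.1 and 45.6 CPM (-0.82, SE 0.11, edgeR, adjusted p = 0.00964). In DG, Rcor1 had 91.2 and 90.9 CPM in WT against 49.6 and 66.4 CPM in KI and did not pass. The genotypes did not overlap for either gene. Hdac1, a histone deacetylase, had a KI-WT difference that was lower in DG than in CA1 by the direct test (-0.58, SE 0.13, edgeR, adjusted p = 0.00783): 48.2 and 54.1 against 24.3 and 37.4 CPM in DG, and 24.3 and 24.3 against 18.4 and 27.9 CPM in CA1. The call was lost without WT replicate 2 (adjusted p = 0.0987).

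DNA-binding and adaptor partners moved in both directions, with medians of 0.03 in DG and -0.06 in CA1. Bcl6, a zinc finger repressor that recruits corepressors, fell in DG granule neurons, where it had 48.5 and 47.9 CPM in WT, to 10.4 and 22.3 CPM (-1.45, SE 0.29, edgeR, adjusted p = 0.0324). It also fell in CA1, from 32.1 and 35.1 CPM to 16.8 and 21.4 CPM (-0.74, SE 0.15, edgeR, adjusted p = 0.0314), a call kept in 8 of 9 alternatives with every library. Cbfb, the common partner of the Runx factors, fell in DG from 39.1 and 37.8 CPM to 19.5 and 19.8 CPM (-0.84, SE 0.12, edgeR, adjusted p = 0.0124). Zbtb16, another zinc finger partner, fell in CA1 from 294 and 270 CPM to 170 and 198 CPM (-0.54, SE 0.095, edgeR, adjusted p = 0.02). This call was kept in 8 of 9 alternatives with every library. In DG, Zbtb16 had 331 and 309 CPM in WT against 115 and 233 CPM in KI and did not pass.

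The LIM-only adaptors Lmo2 and Lmo4, which bridge bHLH and LIM factors, each rose in 1 of the classes. Lmo2 rose in CA1 from 3.21 and 3.86 CPM to 15.5 and 14.4 CPM (2.17, SE 0.22, edgeR, adjusted p = 0.00353), from 32, 31, 162 and 137 UMIs. In DG granule neurons it had 10.1 and 9.76 CPM in WT against 12.7 and 5.69 CPM in KI, overlapping between genotypes. Lmo4 rose in DG from 109 and 98.9 CPM to 153 and 127 CPM (0.58, SE 0.14, edgeR, adjusted p = 0.0496), a call kept in 5 of 9 alternatives with every library. In CA1, Lmo4 had 91.5 and 84.7 CPM in WT against 77.7 and 69.9 CPM in KI. The E proteins Tcf3, Tcf4 and Tcf12 passed in neither class.

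In the Notch and bHLH list, 3 of 15 genes fell in DG granule neurons, where 9.87% of all genes passed, and 0 of 12 passed in CA1, where 7.33% did. The receptor Notch1 had 6.73 and 7.45 CPM in WT against 1.17 and 1.97 CPM in KI (-2.06, SE 0.29, edgeR, adjusted p = 0.011). Its target repressors Hes1 and Hey2 went from 8.69 and 9.49 CPM to 3.36 and 4.24 CPM (-1.13, SE 0.21, edgeR, adjusted p = 0.0254) and from 4.32 and 4.55 CPM to 1.09 and 1.65 CPM (-1.57, SE 0.30, edgeR, adjusted p = 0.027). KI libraries lay below WT libraries for all of them, at 13 to 41 UMIs a KI library. Background RNA was not measured, and its part in these low levels was not tested. In CA1, Notch1 had 1.20, 1.25, 1.05 and 0.95 CPM. Each of the 7 DG calls was lost when either WT library was left out, with edgeR adjusted p from 0.0521 for Notch1 to 0.403 for Lmo4, and kept when either KI library was left out. Over all genes, the 1613 DG calls became 355 and 327 without WT replicate 1 or 2 and 4506 and 8281 without KI replicate 1 or 2. Of the 4 CA1 calls, that of Lmo2 was kept in all 4 such fits, that of Rcor1 was lost without WT replicate 1 (adjusted p = 0.0521), and those of Bcl6 and Zbtb16 were lost without either WT library (adjusted p between 0.104 and 0.257).

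**Figure D4:**
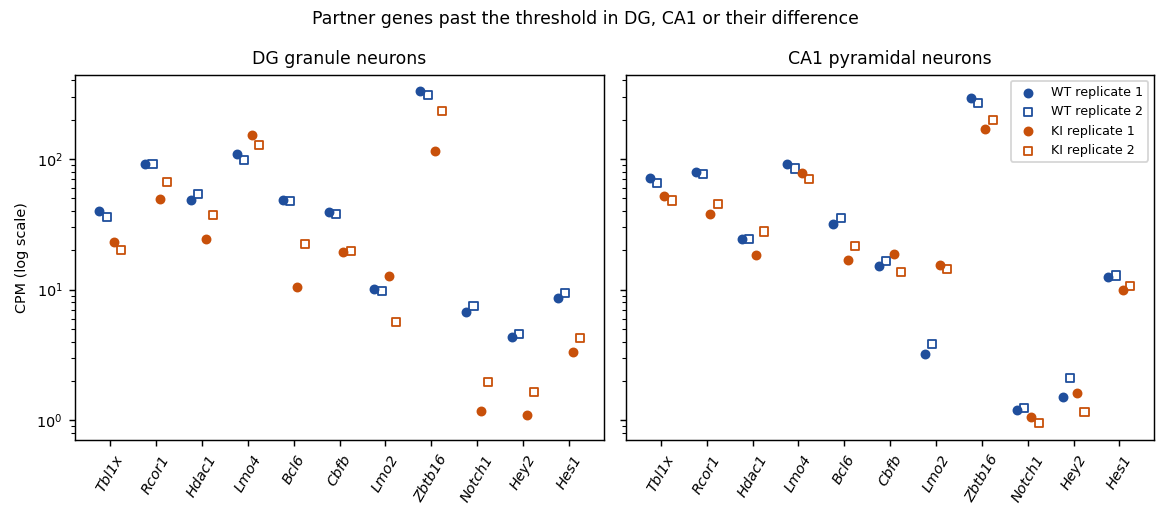
Level (y axis, CPM, log scale) of the 11 partner genes that passed the threshold in DG granule neurons, in CA1 pyramidal neurons or in their difference, 1 point a library (2 WT in blue, 2 KI in orange). Notch1, Hey2, Hes1 and Bcl6 show KI points below WT points in DG, and Lmo2 shows KI points above WT points in CA1 and on both sides of them in DG.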

How the data were processed

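Nuclei of 4 hippocampi (2 WT, 2 KI) were profiled by 3′ droplet RNA-seq. The deposited values are raw UMI counts per gene and barcode, not normalized, which the authors produced with Cell Ranger (7.0.1 in the header of each matrix), the submitters' processing notes naming the build mm10. Groups came from the sample titles. The members and gene lists were chosen with earlier results of these data known.

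Barcodes with at least 500 genes, under 5% mitochondrial UMIs and a Scrublet score of at most 0.25 (scanpy 1.11.5, expected rate 0.08) were kept. Nuclei were clustered with leidenalg 0.10.2 (2000 variable genes, 30 components, 20 neighbours, resolution 0.5), with the members barred from the variable genes. Clusters took a class name if 3 or more of its markers stood at 2 times their level in the remaining nuclei or higher and no other class matched as well, and 7 unnamed clusters were split again at a resolution of 0.3, and 6 of 30 subclusters were named. Resolution and naming limits were set after the clusters, but not the members' values in them, had been seen. Class names are a reconstruction and may depart from those of the study.

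UMIs were summed per library and class, and CPM values are these sums over the class total. Fitted log2 fold changes use TMM factors, so they can depart from ratios of the CPM printed beside them. The KI to WT contrast used edgeR 4.0.16 under R 4.3.3 (low-count filter, TMM factors, quasi-likelihood test) in classes of at least 100 nuclei in every library, with Benjamini-Hochberg adjustment over all genes of the comparison and a threshold of 0.05. Smaller classes of at least 20 nuclei are described with no test. The study tested single nuclei. Nuclei were not used as replicates here, and p-values rest on 2 mice a group. The standard error is the log2 fold change over the root of the F statistic. Genes named beside the members were the 5 closest to each by correlation of log2(CPM + 1), and up to 3 partner genes per list, direction and comparison with the largest change among those past the threshold. One of the genes closest to Runx1t1 is not reported here. Thinned shares are exact expectations for 1000 UMIs drawn from each nucleus. Promoter windows are from RefSeq on GRCm38.p6, matched by symbol for 2 of 3 members. Alternatives were other scalings, DESeq2 1.42.0, no low-count filter, the replicate number as a block, thinned sums, each library left out, no doublet removal, nuclei of at least 1000 genes and single nuclei gated by markers. Same-numbered libraries deviated from their group means with a correlation of 0.027, so replicate numbers were not taken to pair the mice.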

Additional observations from a re-analysis of the deposited data

Results flagged for a closer look

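Of the results in which 2 cell classes could be compared under the same genotype contrast, 8 genes had a KI-WT difference that was not the same in DG granule neurons and in CA1 pyramidal neurons by edgeR's class-by-genotype test. Outliers within a group could not be looked for with 2 libraries a group. Among the members it was Runx1t1, at 0.40 on the log2 scale (DG minus CA1). Among the partners, the value was -0.58 for Hdac1, 0.75 for Lmo4 (adjusted p = 0.000155), -2.14 for Lmo2 (adjusted p = 0.000583), -0.95 for Cbfb (adjusted p = 0.00269), -0.72 for Bcl6 (adjusted p = 0.0249), -1.84 for Notch1 (adjusted p = 0.0344) and -0.90 for Hes1 (adjusted p = 0.0183). The direct test was passed by 13.4% of all genes, and by 7 of 44 genes of the partner lists. Lmo4, Lmo2 and Cbfb passed in all 8 alternatives that kept every library and in all 4 fits that left 1 library out, Notch1 in 4 of 8 and 1 of 4. Of the 8 alternatives, Bcl6 passed in 6 and Hdac1 and Hes1 in 7 each. The Runx1t1 and Notch1 calls and that of Hes1 were each lost in 3 of the 4 fits that left 1 library out. Hes1 and Notch1 were kept without KI replicate 2 (adjusted p = 0.00307 and 0.00584) and ranged from 0.0527 to 0.185 in the other fits. Bcl6 was lost without WT replicate 1 or KI replicate 1 (adjusted p = 0.163 and 0.103), and Hdac1 without WT replicate 2 (adjusted p = 0.0987).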

How the results depend on the processing

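Of 194 alternative fits of Cbfa2t2 and Runx1t1 that kept every library, 174 kept their direction and their side of the threshold, 6 lost a call and 14 turned the sign of a value that was not called. Over the same settings and the fits that left a library out, Cbfa2t3 ran from -1.83 to -1.49 over all nuclei, from -2.01 to -1.57 in DG granule neurons, from -1.80 to -1.18 in CA1, from -1.84 to -1.57 in CA3, from -1.82 to -1.25 in subicular or cortical excitatory neurons, from -0.98 to -0.41 in inhibitory neurons, from -3.67 to -2.03 in astrocytes and from -1.19 to -0.52 in oligodendrocytes. The Runx1t1 difference between DG and CA1 was no longer called with DESeq2 size factors (0.39), library totals (0.33), DESeq2 (0.40), no doublet removal (0.53), thinned sums (0.21) or nuclei gated by markers (0.41). The signs turned for Cbfa2t2 with thinned sums in subicular or cortical excitatory neurons (0.027), with library totals (-0.071) and gated nuclei (-0.34) in OPC, and with nuclei of at least 1000 genes in microglia (-0.0073). For Runx1t1 they turned in DG granule neurons without doublet removal (0.036), in gated oligodendrocytes (0.27), in astrocytes with library totals (-0.0197), no low-count filter (-0.0066) and gated nuclei (-0.068), and in microglia with library totals (-0.045), no filter (-0.024), the replicate block (-0.0033), no doublet removal (-0.024) and gated nuclei (-0.38). The WT level of Runx1t1 in DG granule neurons was 33.6 CPM without doublet removal, 28.8 CPM in gated nuclei and 17.1 CPM with at least 1000 genes. In gated CA1 nuclei Cbfa2t3 was at 38.1 CPM and Cbfa2t2 at 121 CPM. The causes were not tested.

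With 1 library left out, the lone library of a group is assumed to vary like the others. Cbfa2t2 then ran from 0.13 to 0.32 in DG granule neurons, from -0.79 to -0.21 in oligodendrocytes, from -0.10 to 0.10 in subicular or cortical excitatory neurons, from -0.079 to 0.21 in OPC, from -0.092 to 0.28 in microglia and from 0.21 to 0.37 for DG minus CA1. Runx1t1 ran from -0.61 to -0.47 in CA1, from -0.70 to -0.44 in CA3, from -0.32 to 0.0085 in subicular or cortical excitatory neurons, from -0.17 to 0.20 in astrocytes, from -0.25 to 0.22 in microglia and from 0.32 to 0.45 for DG minus CA1. The number of partner genes called ran from 0 to 24 over all nuclei, 0 to 29 in DG, 1 to 17 in CA1, 0 to 17 in CA3, 0 to 13 in inhibitory neurons, 0 to 6 in astrocytes and in oligodendrocytes, 0 to 3 in OPC, 0 to 1 in microglia and 4 to 17 for DG minus CA1. The highest count came without KI replicate 2 in each case.

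Same-numbered libraries share only a number, and the replicate block changed no call of Cbfa2t2 or Runx1t1 (-0.54 in CA1 and -0.57 in CA3 for Runx1t1). With the block, the genes called went from 193 to 1955 over all nuclei, 1613 to 2862 in DG granule neurons, 358 to 662 in CA3, 215 to 1182 in inhibitory neurons, 16 to 31 in astrocytes, 48 to 124 in oligodendrocytes and 1 to 10 in OPC, and the partner genes called from 0 to 3 over all nuclei, 7 to 12 in DG, 0 to 2 in CA3 and 0 to 3 in inhibitory neurons. The library was already the block of the DG minus CA1 fit. DESeq2 called 1829 genes over all nuclei, 34 in astrocytes, 111 in oligodendrocytes and 933 for DG minus CA1 (2224 with edgeR), and 5 partner genes over all nuclei, 1 in CA3 and 3 for DG minus CA1 (7 with edgeR). Its undefined adjusted p-values were left out. Without the low-count filter 710 genes were called over all nuclei, 3311 in DG, 1877 in CA3, 550 in subicular or cortical excitatory neurons, 1011 in inhibitory neurons, 252 in astrocytes, 722 in oligodendrocytes, 124 in OPC and 67 in microglia. Gating called 741 genes in CA1 (1129 with clusters), 1333 for DG minus CA1, 30 in astrocytes, 91 in OPC and 0 in oligodendrocytes, where 1000 genes a nucleus left 16 and no doublet removal gave 77. No doublet removal gave 9 in astrocytes. Gating was not applied to all nuclei. Library totals moved the median of all genes in DG to -0.14, and the calls from 801 higher and 812 lower in KI to 623 and 1234. In CA1 they moved them from 699 and 430 to 591 and 561, in CA3 from 233 and 125 to 134 and 136, in inhibitory neurons from 145 and 70 to 102 and 115, and for DG minus CA1 from 1034 and 1190 to 832 and 1527, with 12 partner genes called. Counts of Cbfa2t3 in glia, at most 22 UMIs a library in astrocytes and 21 in microglia, limit its precision there.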

Other observations

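A cluster of excitatory profile, unnamed as a whole, took 1239 and 1335 nuclei of the WT libraries against 1201 and 1526 of the KI libraries, with Ldb2, Ndst3, Fn1 and Pde11a among its leading genes, and only 1 of 7 CA1 markers was raised in it. Cbfa2t3 measured 39.3 and 36.5 CPM there in WT against 6.53 and 9.89 CPM in KI, and Runx1t1 348 and 344 CPM against 214 and 217 CPM. Cbfa2t2 measured 136 and 134 CPM in WT against 101 and 115 CPM in KI. For each of the 3 genes the genotypes did not overlap, and the share of all genes without overlap was not counted. One of its subclusters, with 107 and 122 WT nuclei and 101 and 169 KI nuclei, was named subicular or cortical excitatory neurons and entered that class. The other nuclei entered no class comparison, and the values of the whole cluster are given with no test.

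A cluster led by vessel and fibroblast genes (Bnc2, Slco1a4, Flt1 and Cldn5 among them), unnamed as a whole, had Cbfa2t3 at 38.6 and 31.8 CPM in WT against 25.1 and 31.8 CPM in KI, from 29, 14, 15 and 22 UMIs. It holds the 75, 97, 112 and 130 nuclei described above as fibroblasts, so these values are not independent of theirs.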
